A study of Homo sapiens with 5 samples.

Results

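The genes described here are the 10 that make up the core of the neuropeptide processing and secretory granule machinery, namely PCSK1, PCSK2, PCSK1N, CPE, PAM, SCG2, SCG3, SCG5, CHGA and CHGB. They were taken by gene symbol from the gene lists of the single-cell tables, and all 10 were among the 32732 genes listed in all 8 libraries. They were followed in every library and, at days 24 and 26 (D24 and D26), in cells with a high level of GNRH1, the gene of gonadotropin-releasing hormone (GnRH), beside all other kept cells. Cells with GNRH1 at 3000 CPM or more (UMIs scaled as described below) were called GNRH1-high, which gave 345 of 9107 kept cells at D24 and 999 of 11056 at D26.

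Peptide hormones are made as longer precursors that are sorted into secretory granules and cut there. The proprotein convertases encoded by PCSK1 and PCSK2 cleave at pairs of basic residues, carboxypeptidase E (CPE) trims the basic residues left at the end of the fragments, and peptidylglycine alpha-amidating monooxygenase (PAM) turns a terminal glycine into an amide. GnRH is an amidated peptide cut from the GNRH1 precursor, so its maturation needs all 3 kinds of step. The granins CHGA, CHGB, SCG2 and SCG3 are acidic cargo and packing proteins of the granule, SCG5 is the chaperone of the PCSK2 enzyme, and PCSK1N encodes proSAAS, an inhibitor of the PCSK1 enzyme.

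The study grew WA09 human embryonic stem cells towards GnRH neurons and read single cells by droplet sequencing. The 8 libraries, 1 culture per condition, were undifferentiated cells (D0), cells after 5 or 10 days of dual SMAD inhibition (D5_dSMADi, D10_dSMADi), the same with the Wnt inhibitor XAV939 added (D5_XAV939, D10_XAV939), and cells at D22, D24 and D26 after FGF8 and then the Notch inhibitor DAPT, without XAV939. The 5 early conditions carried oligonucleotide tags, shared 1 run and were dissociated with Accutase, whereas the 3 late ones were separate runs dissociated with papain, so a difference between early and late libraries cannot be told apart from one of run, enzyme, gene reference or depth. Among the late libraries a difference between days cannot be told apart from one of run or depth. With 1 library per condition no difference between conditions could be tested, and the intervals below are exact 95% intervals that cover counting error only, not the spread between cultures. Those of levels and ratios come from pooled molecules and also leave out the spread between cells.

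Kept cells numbered 1008 to 2815 in the early libraries and 9107 to 11056 in the late ones, with median depths of 24290.5 to 69455.5 and 7180 to 12179 molecules (unique molecular identifiers, UMIs) per cell. Between any pair of libraries 0 to 37 barcodes were shared. Levels are counts per 1e6 UMIs (CPM), from UMIs summed over the cells of a group, and a gene was called in a comparison when it reached 10 CPM in either group and differed at least 2-fold. Doublet-like cells, marked by a score, made up 1.79% to 7.46% of the kept cells. GNRH1 itself was at 0.672 to 1.03 CPM in the early libraries, 5.85 CPM at D22, 1133 CPM at D24 and 3272 CPM at D26, so the GNRH1-high cells were almost all in the last 2 libraries, with 6 at D22.

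The genes lie apart from each other in the genome (GRCh38, GENCODE 44). PCSK1 spans chr5:96390333-96434143 on the minus strand, PCSK2 chr20:17226107-17484578 and PAM chr5:102753981-103029730, both on the plus strand. CPE lies at chr4:165361194-165498547 (plus) and PCSK1N at chrX:48831096-48835610 (minus). Of the granins, CHGA lies at chr14:92923150-92935285 (plus), CHGB at chr20:5911510-5925353 (plus), SCG2 at chr2:223596940-223602361 (minus) and SCG3 at chr15:51681492-51721026 (plus), while SCG5 lies at chr15:32641676-32697098 (plus). PCSK1, SCG3 and SCG5 overlap antisense long noncoding genes that the tables list too, and SCG5 also overlaps a same-strand readthrough gene that was not in all gene lists, so reads of these neighbours may be split between them in a way that was not checked here.

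The promoters of PCSK1 and CHGA are shown because they alone of the 8 members found in the promoter table (all but SCG2 and CHGB) held the cyclic AMP response element searched for, TGACGTCA, which reads the same on both strands. The sequences come from RefSeq (GRCh38.p14), run 5′ to 3′ on the strand of the gene, and the capitals mark the element.
PCSK1, chr5:96433278-96433397, minus strand, from 149 to 30 bases before the start: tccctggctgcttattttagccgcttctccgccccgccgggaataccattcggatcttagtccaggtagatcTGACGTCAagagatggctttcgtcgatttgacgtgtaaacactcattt
CHGA, chr14:92923024-92923143, plus strand, from 126 to 7 bases before the start: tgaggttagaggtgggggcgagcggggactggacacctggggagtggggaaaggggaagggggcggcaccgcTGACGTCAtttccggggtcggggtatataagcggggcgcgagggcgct
The RefSeq start of PCSK1 used here lies inside the longer GENCODE span given above. The element began 77 bases before the PCSK1 start and 54 bases before the CHGA start, and 1.85% of all 35116 promoters of 300 bases in the table held it. TAATTA, the core of many homeodomain sites, was in 4.84% of all promoters, and CAGATG or its reverse CATCTG, an E-box of neuronal factors, in 14.7%, but neither was in any of the 12 promoters of the 8 members. These are matches of letters, and the levels of PCSK1 and CHGA given below differed in order across libraries and cells.

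The GNRH1-high cells carried less of both convertases, of the amidating enzyme and of secretogranin II than the remaining cells of the same dish, but like amounts of proSAAS and slightly more SCG3. At D24 4 of 10 members were called lower in GNRH1-high cells (PCSK1, PCSK2, PAM and SCG2) and at D26 3 (PCSK1, PCSK2 and SCG2), whereas 0 were called higher on either day. At a 1.5-fold limit 5 members were called at D26, beside 9.83% of tested genes. Among all tested genes at the 2-fold limit, 4.98% of 7684 were called lower at D24 and 2.91% of 8443 at D26, and 2.37% and 1.99% were called higher. All 10 members reached 10 CPM on both days, and their median log2 ratio was -0.44 at D24 and -0.62 at D26, beside -0.13 and -0.08 over all tested genes. The other kept cells were mostly glutamatergic-marker-positive (6348 of 8762 at D24 and 8102 of 10057 at D26), and comparison with the other DLX-positive cells, given further on, took away every call.

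PCSK1, the convertase of the early secretory granule, was at 13.7 CPM (9.90 to 18.6) in the GNRH1-high cells and 48.2 CPM in the other kept cells at D24. At D26 it was at 34.0 CPM (30.5 to 37.7) and 130.1 CPM. These are 3.51-fold (log2 ratio -1.81, interval -2.29 to -1.37) and 3.83-fold (-1.94, -2.09 to -1.78) lower levels in the GNRH1-high cells. Only 1.99% of tested genes at D24 and 0.770% at D26 had a lower ratio than PCSK1. PCSK2, which acts later in the granule, differed by a similar factor. It was at 31.7 against 118 CPM at D24 (3.72-fold lower, -1.90, -2.20 to -1.61) and at 43.6 against 154 CPM at D26 (3.54-fold lower, -1.82, -1.96 to -1.69).

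PAM, the enzyme of C-terminal amidation, was at 35.0 against 105 CPM at D24, which was 3.00-fold lower in the GNRH1-high cells (-1.59, -1.87 to -1.31). At D26 the levels were 73.6 and 132 CPM, 1.80-fold lower (-0.85, -0.95 to -0.74) and short of the 2-fold limit. CPE, the carboxypeptidase that follows the convertases, differed far less. It was at 258 against 343 CPM at D24 (-0.41, -0.51 to -0.31) and at 375 against 395 CPM at D26 (-0.07, -0.12 to -0.03). Of the enzymes, the convertases and PAM had the larger differences on both days, and CPE was 1.33-fold lower at D24 and close to equal at D26.

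The partners of the convertases did not move together. PCSK1N, which encodes the PCSK1 inhibitor proSAAS, was at 789.9 against 804 CPM at D24 (-0.03, -0.08 to 0.03) and 1041 against 1047 CPM at D26 (-0.01, -0.04 to 0.02), intervals that both hold equality. SCG5, the chaperone of PCSK2, was at 114 against 152 CPM at D24 (-0.41, -0.57 to -0.26) and at 193 against 330.1 CPM at D26 (1.71-fold lower, -0.78, -0.84 to -0.71). PCSK1 and PCSK1N thus stood in different ratios in GNRH1-high and other cells, on both days.

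SCG2, secretogranin II, had the largest difference of the 10 members on both days. It was at 25.2 against 195 CPM at D24 (7.73-fold lower, -2.95, -3.29 to -2.63) and at 43.9 against 188 CPM at D26 (4.29-fold lower, -2.10, -2.24 to -1.97). Of all tested genes, 0.312% at D24 and 0.545% at D26 had a lower ratio. SCG3, which binds granule membranes, was slightly higher in the GNRH1-high cells, at 447 against 405 CPM at D24 (0.14, 0.06 to 0.22) and 539.6 against 471 CPM at D26 (0.20, 0.16 to 0.24).

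The chromogranins differed from each other. CHGB was at 61.8 against 84.8 CPM at D24 (-0.46, -0.67 to -0.25) and 118 against 162 CPM at D26 (-0.45, -0.54 to -0.37), which is nearly the same ratio on both days. CHGA was at 32.0 against 41.1 CPM at D24 (-0.36, -0.67 to -0.07) but at 66.0 against 47.1 CPM at D26, 1.40-fold higher in the GNRH1-high cells (0.49, 0.37 to 0.60). CHGA was the only member whose ratio changed sign with both intervals away from 0, and at D26 95.7% of the tested genes had a lower ratio.

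**Figure D1:**
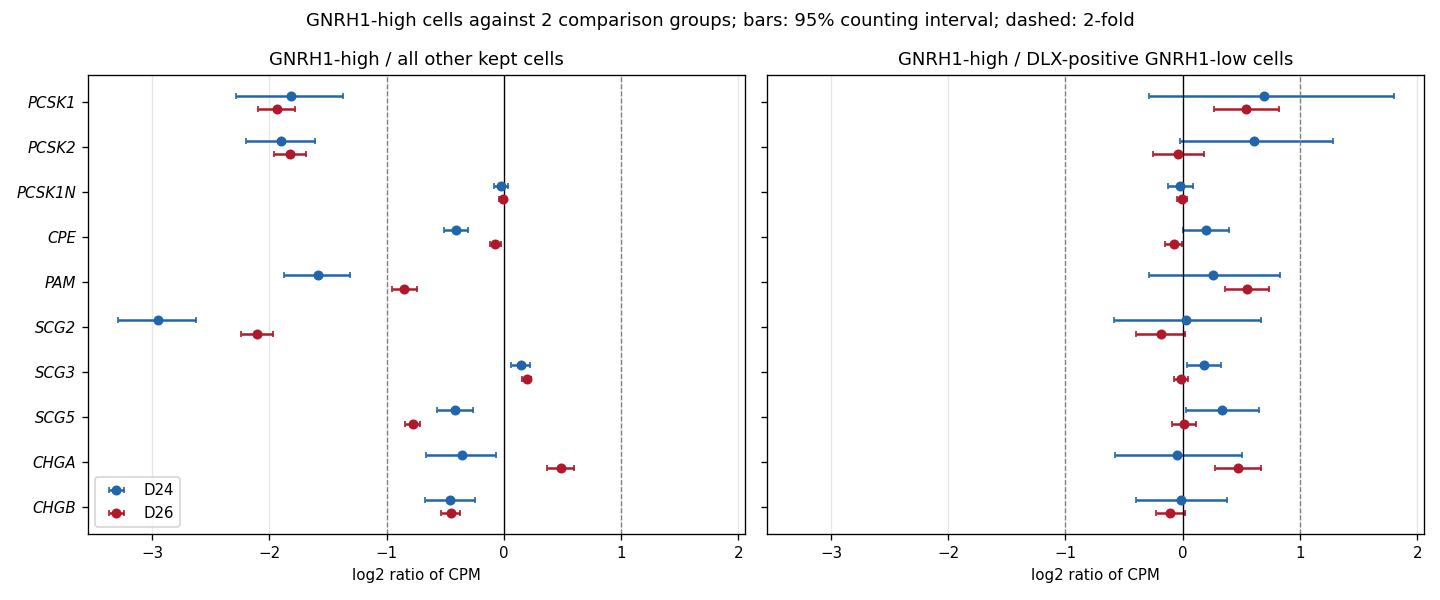
Log2 ratio of each of the 10 genes in GNRH1-high cells over other cells at D24 and D26; points are ratios and bars are exact 95% counting intervals. SCG2, PCSK1 and PCSK2 lie lowest against all other kept cells (SCG2 at -2.95 and -2.10), whereas against DLX-positive cells with little GNRH1 no gene reaches a 2-fold difference.

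For PCSK1, PCSK2, SCG2 and PAM the share of cells with a molecule was also lower in GNRH1-high cells after each cell was thinned to 1500 UMIs, which removes the difference in depth (medians of 9729 and 8401 UMIs in GNRH1-high and other cells at D26, 8247 and 7149.5 at D24). At D26 PCSK1 was seen in 4.30% of GNRH1-high cells (3.13 to 5.75) and 17.3% of the others, PCSK2 in 5.11% (3.82 to 6.66) and 20.5%, and SCG2 in 4.00% (2.88 to 5.41) and 23.2%. Without thinning the shares were 19.2% and 58.8% for PCSK1, 25.1% and 66.4% for PCSK2 and 19.8% and 65.5% for SCG2. PAM was seen in 8.31% (6.67 to 10.2) and 16.7% of thinned cells, 41.9% and 61.2% of unthinned ones. PCSK1N, by contrast, was seen in 78.0% and 77.5% of thinned cells and CPE in 42.1% and 44.4%. CHGA, whose CPM ratio changed sign between the days, was seen in 6.38% (4.04 to 9.50) and 5.95% of thinned cells at D24 and in 7.21% (5.68 to 8.99) and 7.17% at D26 (24.1% and 25.4%, and 43.6% and 32.0%, before thinning). The thinned shares settle no direction on either day.

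RNA from outside a cell also gives molecules in droplets, and the level to compare with is that of a gene in cells that should lack it. GNRH1, at 25265 CPM in GNRH1-high cells at D24 and 30364 CPM at D26, had 21.4 and 77.6 CPM in glutamatergic-marker-positive cells, and a molecule in 2.79% and 8.99% of those cells after thinning (9.88% and 35.9% before). In the other direction, the glutamatergic transcription factor TBR1 was at 59.1 CPM in GNRH1-high cells at D26 against 344 CPM in glutamatergic-marker-positive cells, PPP1R17 at 95.7 against 517 CPM and the vesicular transporter SLC17A6 at 14.1 against 73.6 CPM. At D24 TBR1 was at 37.3 against 342 CPM. These 3 genes set the glutamatergic-marker-positive group, so their levels there are raised by the selection. All 6 markers of the glutamatergic list (LHX1, LHX5 and LHX9 are the others) had UMIs in GNRH1-high cells, from 11.4 CPM for LHX5 to 42.2 CPM for PPP1R17 at D24 and from 14.1 to 95.7 CPM at D26. Beside these stand PCSK1, at 13.7 against 54.8 CPM at D24 and 34.0 against 145 CPM at D26, and SCG2, at 25.2 against 213 CPM and 43.9 against 207 CPM. How much of the PCSK1, PCSK2 and SCG2 there came from such RNA or from mixed droplets was not tested. Doublet-like cells made up 8.70% of the GNRH1-high and 6.71% of the other cells at D24 and 13.3% and 6.88% at D26.

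Without doublet-like cells the differences were larger. PCSK1 then had a log2 ratio of -2.04 at D24 and -2.72 at D26, PCSK2 -2.17 and -2.48, PAM -2.07 and -1.08, and SCG2 -3.48 and -3.00. PAM thus passed the 2-fold limit at D26, which made 4 called members beside 6.27% of tested genes. Of all GNRH1-high cells, doublet-like ones included, 27 at D24 (7.83%) and 154 at D26 (15.4%) reached the limit for glutamatergic markers. When these alone were left out, a choice made after seeing the data, PCSK1 was at -2.34 and -2.86, PCSK2 at -2.29 and -2.57, and SCG2 at -3.38 and -3.13, and SCG5 and PAM joined the called members at D26 (-1.01 and -1.14), which made 5 called members beside 6.44% of tested genes. They were left out of the GNRH1-high group only. They were picked by markers of the cells with the highest PCSK1, PCSK2, PAM, SCG2 and SCG5, so the choice itself enlarges these differences.

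Many of these cells also carried DLX genes, transcription factors of GABAergic neurons, since 64.9% of GNRH1-high cells at D24 and 70.8% at D26 reached 500 CPM of summed DLX1, DLX2, DLX5, DLX6 and DLX6-AS1. DLX5 was at 239 CPM in GNRH1-high cells at D26 and 1.89 CPM in glutamatergic-marker-positive ones, and the GABA-synthesising enzyme GAD2 at 149 and 2.18 CPM. Cells at the DLX limit were taken out before the glutamatergic-marker-positive group was set, so its DLX5 level is lowered by the selection. The neuronal gene STMN2 was alike, at 8085 CPM in GNRH1-high cells and 8094 CPM in the other kept cells at D26. The markers of other endocrine organs (POMC, INS and CGA) and of neural crest (SOX10 and FOXD3) had no UMI in GNRH1-high cells on either day. Cells that reached the DLX limit with GNRH1 under 3000 CPM numbered 158 at D24 and 716 at D26 and had GNRH1 at 338 and 502 CPM.

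Set against these DLX-positive GNRH1-low cells, 0 of 10 members were called on either day, beside 3.84% of all tested genes called in either direction at D24 and 0.652% at D26, so that at D26 hardly any gene was called. Taken as a whole, the GNRH1-high cells had no member lower by more than the -0.19 log2 ratio of SCG2 at D26. Of the GNRH1-high cells, 27 at D24 (7.83%) and 154 at D26 (15.4%) reached the limit for glutamatergic markers. How far these cells moved the ratios given here was not tested. At D24 PCSK1 was at 13.7 CPM in GNRH1-high and 8.48 CPM in DLX-positive cells (log2 ratio 0.70, -0.29 to 1.80), PCSK2 at 31.7 and 20.8 CPM (0.61, -0.02 to 1.28), PAM at 35.0 and 29.3 CPM (0.26, -0.29 to 0.83) and SCG2 at 25.2 and 24.7 CPM (0.03, -0.58 to 0.67). All 4 intervals held 0. SCG5 (0.33, 0.03 to 0.65), CPE (0.20, 0.0028 to 0.40) and SCG3 (0.18, 0.03 to 0.33) were slightly higher in GNRH1-high cells at D24, with intervals that began close to 0. At D26, with more cells, PCSK1 was at 34.0 and 23.4 CPM (0.54, 0.26 to 0.82) and PAM at 73.6 and 50.2 CPM (0.55, 0.36 to 0.74), both higher in the GNRH1-high cells. CHGA was higher too, at 66.0 and 47.5 CPM (0.47, 0.28 to 0.67). CPE was slightly lower, at 375 and 396 CPM (-0.08, -0.15 to -0.0047), with an interval that ended close to 0. PCSK2 (43.6 and 44.7 CPM), SCG2 (43.9 and 50.1 CPM), SCG3 (539.6 and 544 CPM), SCG5 (193 and 191 CPM) and PCSK1N (1041 and 1044 CPM) had intervals that held equality. Levels within the GNRH1-high group varied with GNRH1, scaled here to totals without it. In its 422 cells at 30000 CPM of GNRH1 and above, PCSK1 was at 23.8 CPM (19.3 to 29.0) and PCSK2 at 30.7 CPM (25.5 to 36.6). SCG2 was at 27.0 CPM (22.2 to 32.6) and PAM at 70.1 CPM (62.1 to 78.7) in them. From 3000 to 10000 CPM of GNRH1 these genes were at 52.4, 64.5, 65.3 and 78.9 CPM. The order of the ratios therefore depended on the cells compared with, and the low convertase, PAM and SCG2 levels were shared by the DLX-positive cells with little GNRH1.

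Between DLX-positive GNRH1-low and glutamatergic-marker-positive cells at D26, PCSK1 differed by -2.64 on the log2 scale, SCG2 by -2.05, PCSK2 by -1.92, PAM by -1.48 and SCG5 by -0.89. The glutamatergic-marker-positive cells held the highest PCSK1 (145 CPM), PCSK2 (169 CPM), PAM (140.4 CPM), SCG2 (207 CPM), SCG5 (353 CPM) and CHGB (168 CPM) of these 3 cell groups at D26. Against them the GNRH1-high cells had -2.10 for PCSK1, -1.95 for PCSK2, -0.93 for PAM, -2.23 for SCG2 and -0.88 for SCG5, and at D24 -2.00, -2.00, -1.69, -3.08 and -0.56.

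**Figure D2:**
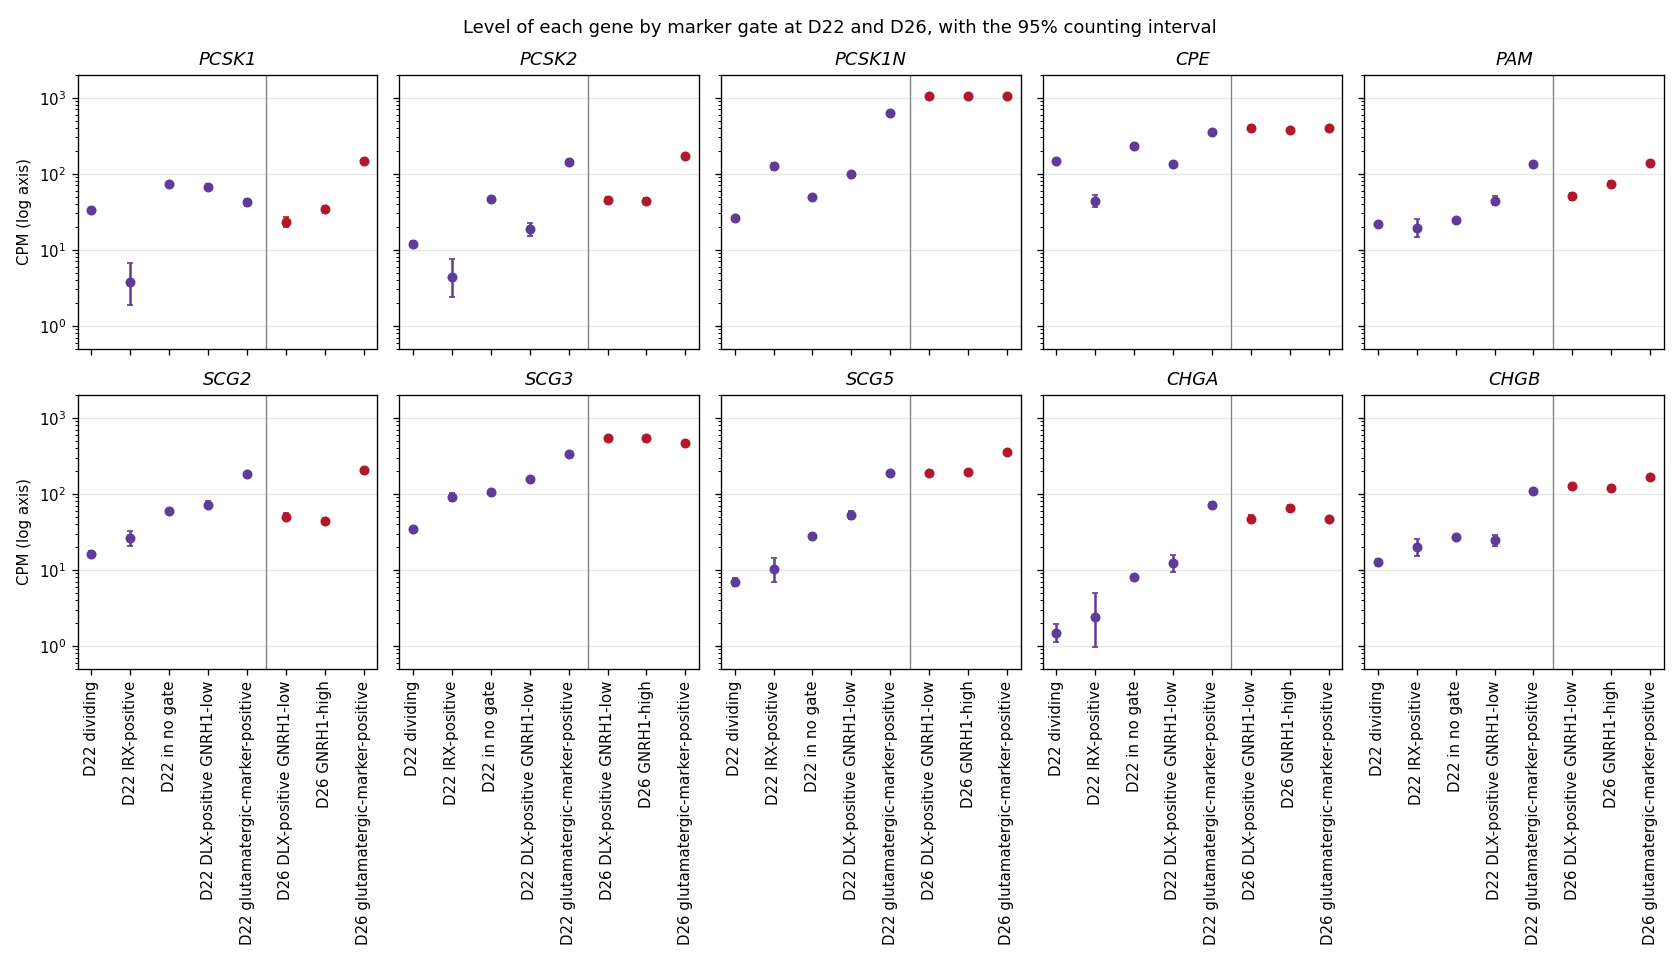
Level of each gene (CPM, log axis) in cell groups set by marker limits at D22 and D26, with exact 95% Poisson intervals. PCSK1, PCSK2, PAM and SCG2 are low in both GNRH1-high and DLX-positive GNRH1-low cells at D26 and high in glutamatergic-marker-positive cells (PCSK1 at 34.0, 23.4 and 145 CPM at D26), whereas PCSK1N is at 1041, 1044 and 1057 CPM in them at D26.

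Within D26 the levels of PCSK1, PCSK2 and SCG2 were lower in bands of cells with more GNRH1. The bands mix cell classes, since 8102 of the 10057 cells under 3000 CPM of GNRH1 were glutamatergic-marker-positive, whereas DLX-positive GNRH1-low cells had these 3 genes at 23.4, 44.7 and 50.1 CPM with GNRH1 at 502 CPM. Cells were put into 6 bands of GNRH1 (no UMI, and up to 1000, 3000, 10000 and 30000 CPM and above), holding 6194, 3617, 246, 250, 327 and 422 cells, and levels were scaled to totals without GNRH1. PCSK1 was at 135, 127, 63.5, 52.4, 35.7 and 23.8 CPM from the lowest to the highest band. PCSK2 went from 159.5 over 151, 80.0, 64.5 and 47.6 to 30.7 CPM and SCG2 from 195 over 185, 88.5, 65.3 and 52.1 to 27.0 CPM. Each of these 3 genes was lower in every higher band, and the step was largest between cells under and over 1000 CPM of GNRH1.

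PAM and SCG5 were also lower in the upper bands but over a smaller range, PAM from 135 to 70.1 CPM and SCG5 from 342 to 176 CPM. CHGA went the other way by CPM, at 46.3, 48.0, 52.3, 54.1, 67.7 and 77.0 CPM, but its share of thinned cells was 6.67%, 7.88%, 9.35%, 7.20%, 7.95% and 6.64%, with no order. SCG3 went from 470.3 to 564 CPM. CPE stayed between 376 and 397 CPM and PCSK1N between 989 and 1144 CPM. At D24, with 72, 158 and 115 cells in the 3 upper bands, PCSK1 was at 23.0, 11.1 and 11.2 CPM there against 48.3 CPM in cells without GNRH1, SCG2 at 51.5, 18.5 and 15.6 against 197 CPM and PCSK2 at 47.4, 35.6 and 15.6 against 118 CPM. In the bands between (904 and 61 cells) PCSK1 was at 49.9 and 14.9 CPM, PCSK2 at 120 and 57.9 CPM and SCG2 at 181 and 80.3 CPM. Of these genes only SCG2 was lower in every higher band at D24. Near the limit of 3000 lay 143 cells with 1500 to 3000 CPM and 84 with 3000 to 4500 at D26, and 37 and 23 at D24.

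**Figure D3:**
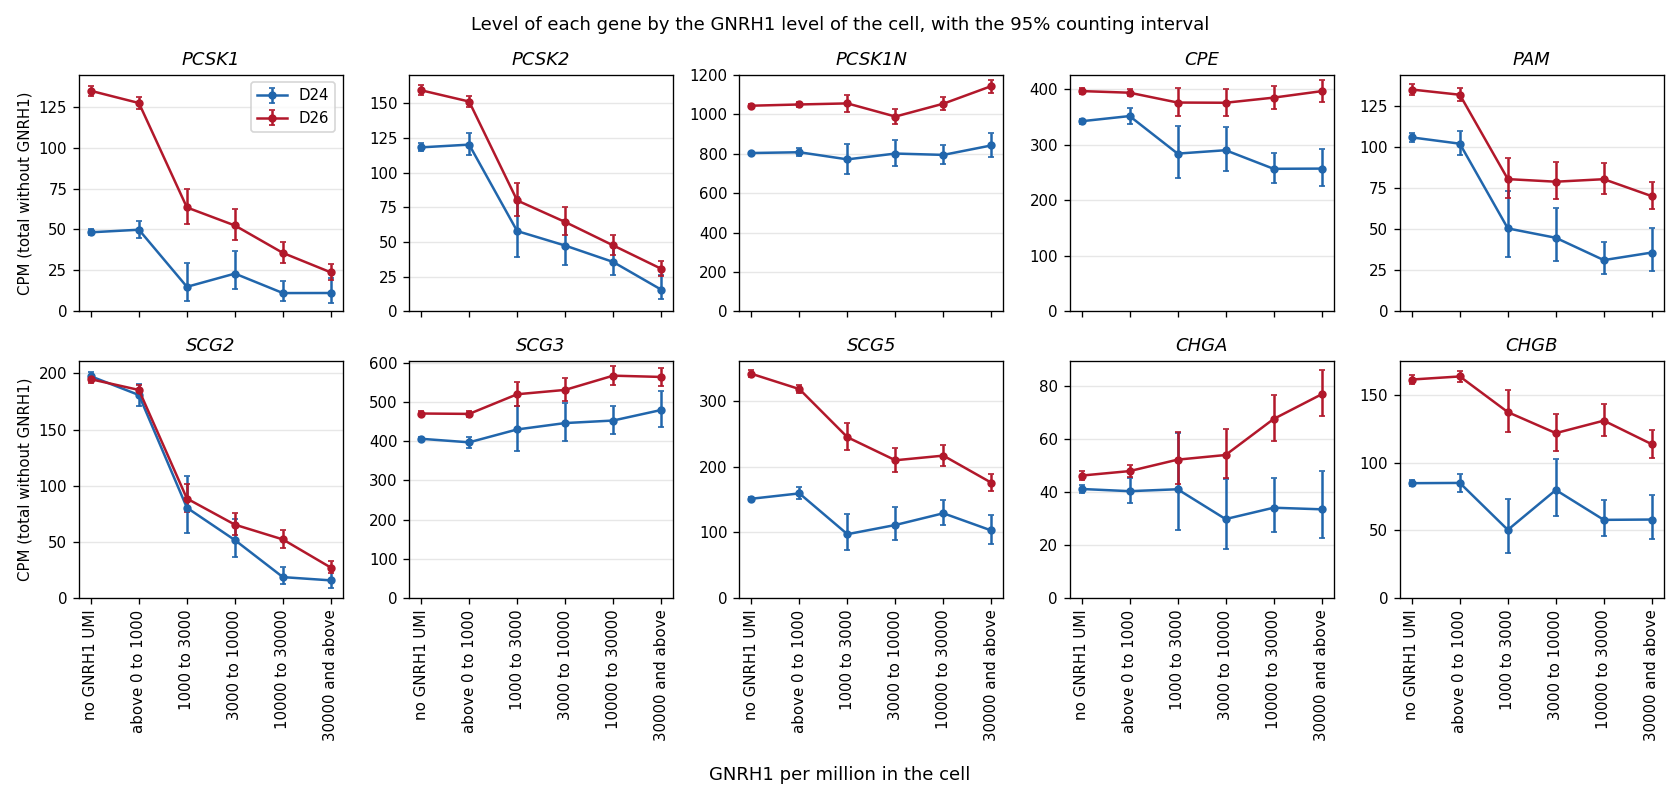
Level of each gene (CPM without GNRH1 in the totals, linear axis) in 6 bands of GNRH1 per cell at D24 and D26, with exact 95% Poisson intervals. At D26 PCSK1, PCSK2 and SCG2 descend from band to band (PCSK1 from 135 to 23.8 CPM), CHGA has 46.3 CPM in the lowest and 77.0 CPM in the highest band, and CPE and PCSK1N lie nearly flat.

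Maturation of a peptide needs the enzymes in the same cell, so their detection together was counted after thinning to 5000 UMIs. At least 1 convertase (PCSK1 or PCSK2) was seen in 16.8% (12.8 to 21.4) of GNRH1-high cells at D24 and in 21.5% (18.9 to 24.4) at D26. In glutamatergic-marker-positive cells the shares were 57.0% and 77.4%, and in DLX-positive GNRH1-low cells 6.62% (3.07 to 12.2) and 20.5% (17.4 to 23.9). The thinned shares leave out cells under 5000 UMIs. At D24 these were 29 of 345 GNRH1-high, 22 of 158 DLX-positive GNRH1-low and 596 of 6348 glutamatergic-marker-positive cells. Without thinning, 83 of 345 GNRH1-high cells at D24 (24.1%, 19.6 to 28.9) and 328 of 999 at D26 (32.8%) held a convertase molecule. Of DLX-positive GNRH1-low cells, 29 of 158 at D24 (18.4%, 12.7 to 25.3) and 218 of 716 at D26 (30.4%) did. The remaining GNRH1-high cells showed neither at this depth, which does not mean that they lacked them.

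Both convertases together were seen in 2.77% (1.80 to 4.07) of thinned GNRH1-high cells at D26 and 28.0% (27.0 to 29.1) of glutamatergic-marker-positive ones. The full set of a convertase, CPE and PAM was seen in 1.27% (0.346 to 3.21) of thinned GNRH1-high cells at D24 and 6.33% (57 of 901 cells, 4.83 to 8.12) at D26. The same set was seen in 19.3% and 32.0% of glutamatergic-marker-positive cells and in 1.47% and 5.57% of DLX-positive GNRH1-low cells. Unthinned, 190 of 999 GNRH1-high cells at D26 (19.0%, 16.6 to 21.6) held the set, and 29 of 345 at D24 (8.41%, 5.70 to 11.8). The background from free RNA given above applies to these shares too.

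**Figure D4:**
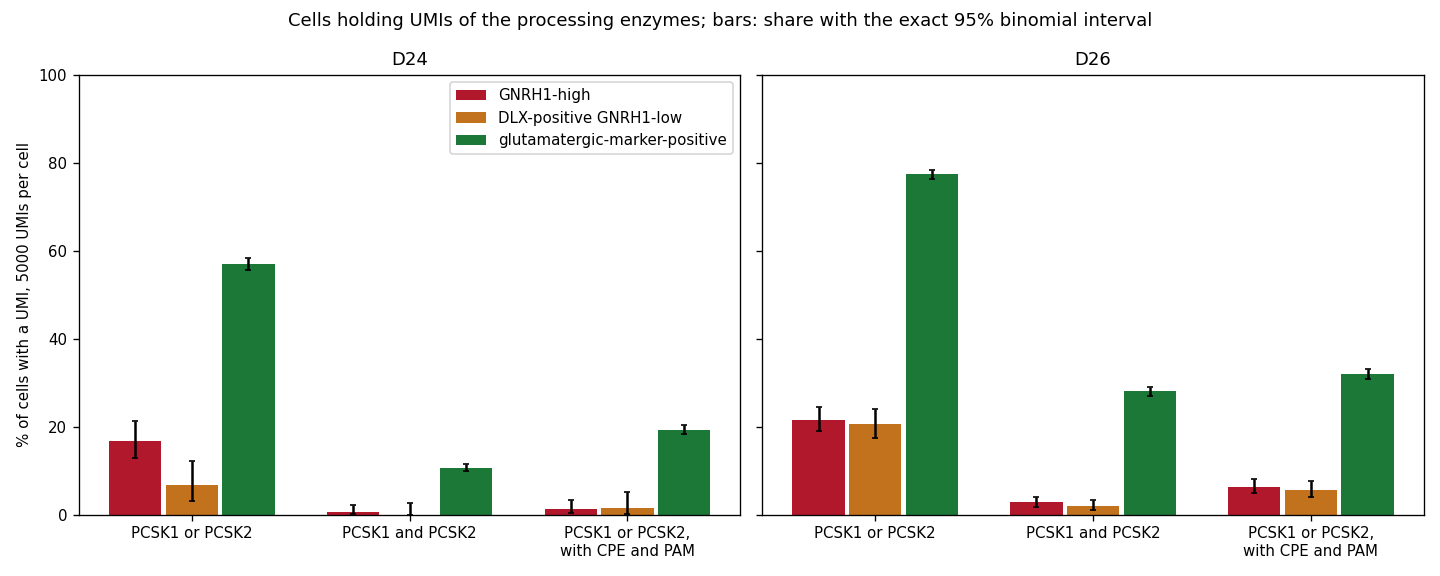
Percent of cells with at least 1 molecule of the named enzymes after thinning to 5000 UMIs, by cell group at D24 and D26, with exact 95% binomial intervals. The set of a convertase with CPE and PAM was seen in 6.33% of GNRH1-high and 32.0% of glutamatergic-marker-positive cells at D26.

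Over whole libraries, whose mix of cells differed as given below, most of the group was higher at D24 than at D22. The 8 of 10 members called higher stood beside 10.2% of all tested genes called higher and 12.9% called lower, and 0 members were called lower. PCSK1N was at 86.3 CPM at D22 (84.7 to 87.9) and 803 CPM at D24 (9.31-fold), and SCG5 at 33.9 and 150.0 CPM (4.42-fold). Among the granins SCG3 was at 104 and 407 CPM (3.90-fold), CHGA at 10.6 and 40.7 CPM (3.85-fold), SCG2 at 55.8 and 187 CPM (3.36-fold) and CHGB at 28.5 and 83.8 CPM (2.94-fold). PAM was at 32.1 and 102 CPM (3.18-fold) and PCSK2 at 40.8 and 114 CPM (2.80-fold). CPE was 1.64-fold higher (207 and 339 CPM), and PCSK1 was the exception, at 58.6 CPM (57.3 to 59.9) and 46.7 CPM (45.1 to 48.3). The median log2 ratio of the members was 1.71, against -0.11 over all tested genes.

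From D24 to D26 the 2 members called higher were PCSK1, at 46.7 and 120.1 CPM (118 to 122, 2.57-fold), and SCG5, at 150.0 and 316 CPM (2.11-fold), beside 7.37% of tested genes called higher and 2.03% called lower. Without mitochondrial and ribosomal protein genes in the totals only PCSK1 was called, beside 8.02% of tested genes. CHGB was at 83.8 and 158 CPM (log2 ratio 0.91). The other 7 had log2 ratios from -0.11 for SCG2 (187 and 173 CPM) to 0.38 for PCSK1N (803 and 1046 CPM), and the members' median of 0.32 was close to the 0.34 of all tested genes. PCSK1 was higher at D26 than at D24 in each cell group, by 1.31 on the log2 scale in GNRH1-high cells, 1.46 in DLX-positive GNRH1-low cells and 1.41 in glutamatergic-marker-positive cells.

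The libraries differed in their mix of cells, and a level over a whole library moves with it. Dividing cells (MKI67 and TOP2A summed to at least 300 CPM, after GNRH1-high and DLX-positive cells were taken out) numbered 2073 of 9523 at D22, 54 of 9107 at D24 and 5 at D26, and glutamatergic-marker-positive cells 735, 6348 and 8102. Within D22 the glutamatergic-marker-positive cells had CHGA at 71.4 CPM against 1.49 CPM in dividing cells (log2 ratio 5.59), SCG5 at 188 against 6.97 CPM (4.75), PCSK1N at 628 CPM with a log2 ratio of 4.60 and PCSK2 at 141 against 11.9 CPM (3.56). SCG2 (3.50), SCG3 (3.30), CHGB (3.11), PAM (2.63) and CPE (1.28) followed. PCSK1 stood apart, at 42.3 against 33.0 CPM (0.36), and at 74.2 CPM in the 6046 D22 cells that reached no marker limit. Among glutamatergic-marker-positive cells no member differed 2-fold between D22 and D24. CHGA was lower at D24 (71.4 and 43.6 CPM, log2 ratio of D24 over D22 -0.71), as were CHGB (-0.28), PAM (-0.25), SCG5 (-0.17) and PCSK2 (-0.15). CPE was at 355 CPM on both days, and PCSK1N (0.43), PCSK1 (0.37), SCG3 (0.28) and SCG2 (0.20) were higher at D24. The DLX-positive group was set before the dividing one and at D22 also took in cells at the dividing limit, so its make-up can differ between days. In DLX-positive GNRH1-low cells PCSK1 was at 66.9 CPM at D22, 8.48 CPM at D24 and 23.4 CPM at D26, while PCSK1N went from 98.1 to 802 and 1044 CPM. SCG2 (72.1 and 24.7 CPM, log2 ratio -1.55) and PAM (44.2 and 29.3 CPM, -0.59) were also lower at D24 than at D22 in them. PCSK2 had an interval that held equality (0.15, -0.52 to 0.77). CHGA (1.43), CHGB (1.34), SCG3 (1.32), SCG5 (0.77) and CPE (0.75) were higher at D24.

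Sorting D22 cells by STMN2, a gene switched on in postmitotic neurons, gave the same picture. Cells under 100, from 100 to 1000 and at or above 1000 CPM of STMN2 numbered 3596, 2914 and 3013. CHGA was at 1.09, 3.29 and 31.4 CPM, CHGB at 10.2, 18.7 and 64.0 CPM and SCG5 at 15.0, 19.4 and 75.3 CPM from the lowest to the highest band. PCSK2 was at 21.1, 33.8 and 75.2 CPM, SCG2 at 32.1, 49.5 and 94.7 CPM and CPE at 146, 202 and 295 CPM. PCSK1 was at 49.4, 70.0 and 58.9 CPM, with its highest level in the middle band, and PCSK1N at 28.7, 18.8 and 238 CPM, with its lowest there.

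**Figure D5:**
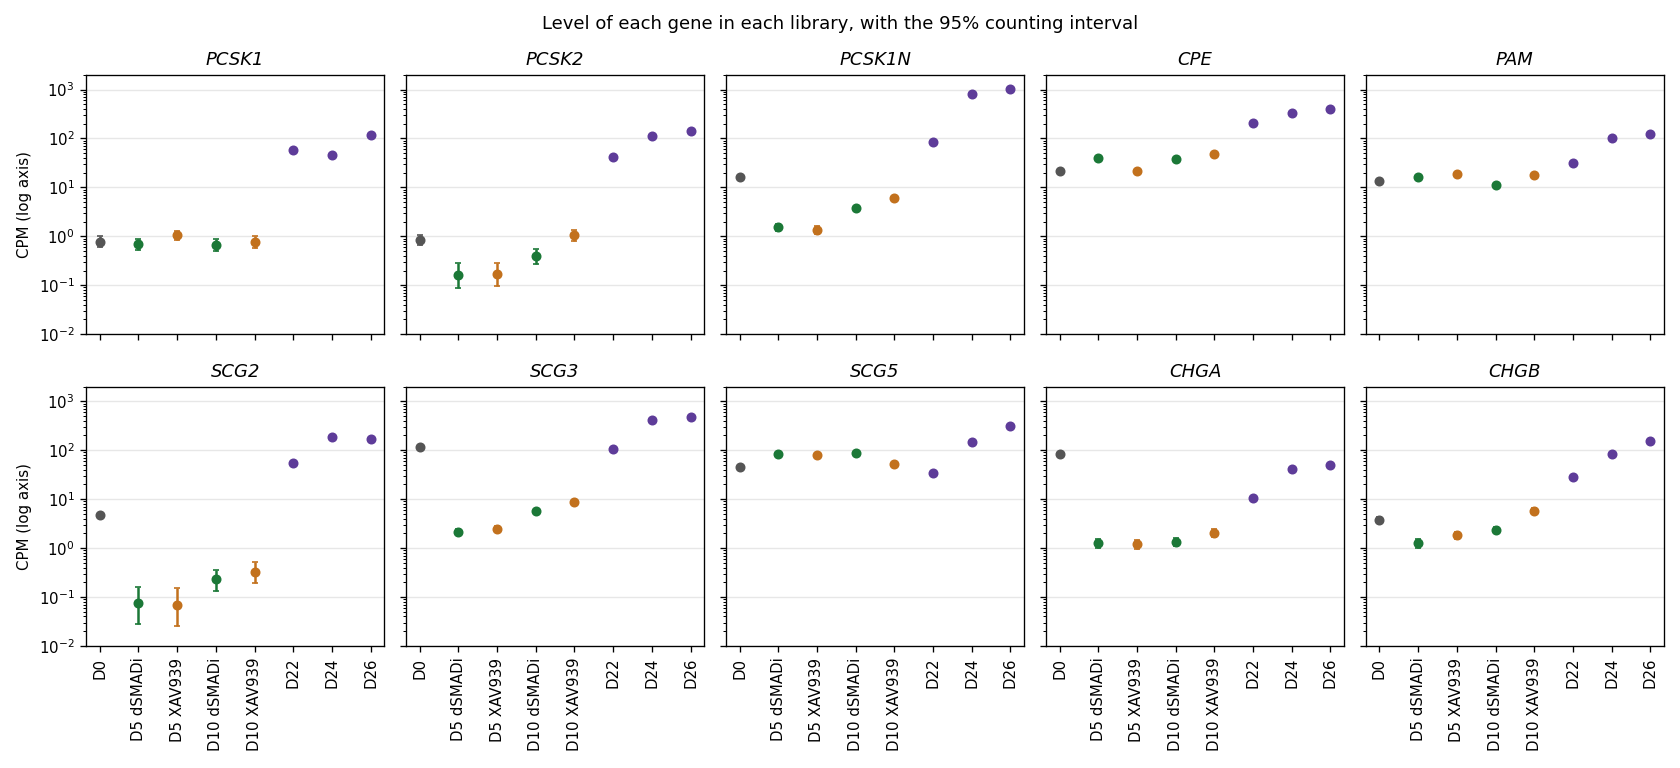
Level of each gene (CPM, log axis) in the 8 libraries from D0 to D26, with exact 95% Poisson intervals. SCG3 and CHGA are high at D0 (SCG3 at 114 CPM), lowest at D5 and high again at D24 and D26, whereas PCSK1 is near 1 CPM in all 5 early libraries.

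The undifferentiated cells already held a part of the granule genes. At D0 SCG3 was at 114 CPM (111 to 116), CHGA at 81.8 CPM (79.8 to 83.9), SCG5 at 45.4 CPM, CPE at 21.8 CPM, PCSK1N at 16.0 CPM and PAM at 13.4 CPM, while PCSK1, PCSK2, SCG2 and CHGB were at 0.777, 0.843, 4.68 and 3.76 CPM. CHGA was at a higher level at D0 than at D26 (49.0 CPM). It was seen in 95.9% of D0 cells, and in 10.9% after thinning to 1500 UMIs, and SCG3 in 99.2% and 16.1%.

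After 5 days of dual SMAD inhibition, 3 of the 6 members that reached 10 CPM were called lower than at D0, beside 17.0% of all tested genes called lower and 8.22% called higher. CHGA was at 1.25 CPM, 65.2-fold lower (log2 ratio -6.03), SCG3 at 2.12 CPM, 53.7-fold lower (-5.75), and PCSK1N at 1.53 CPM, 10.4-fold lower (-3.38). CPE (40.8 CPM, 0.90), SCG5 (83.8 CPM, 0.88) and PAM (16.2 CPM, 0.27) were higher by less than 2-fold. With mitochondrial and ribosomal protein genes left out of the totals, CPE (1.08) and SCG5 (1.06) passed the limit, which made 5 called members beside 2608 of 10020 tested genes. At a 1.5-fold limit 5 were called, beside 46.8% of tested genes. Of the members below 10 CPM, SCG2 had 6 UMIs in the D5_dSMADi library (0.0753 CPM).

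Between D5 and D10 under dual SMAD inhibition 0 of 3 tested members were called, beside 5.15% of tested genes called higher and 1.35% called lower. CPE was at 40.8 and 37.8 CPM, SCG5 at 83.8 and 87.1 CPM and PAM at 16.2 and 11.3 CPM. Among members under 10 CPM, SCG3 was at 2.12 CPM at D5 and 5.79 CPM at D10, PCSK1N at 1.53 and 3.75 CPM and CHGB at 1.24 and 2.37 CPM, whereas PCSK1 was at 0.690 and 0.673 CPM and CHGA at 1.25 and 1.32 CPM.

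At D10 these low levels were uneven between cells. Of 2416 kept D10_dSMADi cells, 17 had at least 1000 CPM of STMN2, and in them SCG3 was at 364 CPM, PCSK1N at 250.3 CPM, CHGB at 71.1 CPM, PCSK2 at 68.3 CPM, CHGA at 48.4 CPM, CPE at 427 CPM and SCG5 at 329.9 CPM. In the 2388 cells under 100 CPM of STMN2 the same genes were at 4.20, 2.65, 2.08, 0.0897, 1.10, 36.0 and 86.1 CPM. PCSK1 and SCG2 had 1 and 0 UMIs in the 17 cells, too few to compare. In the 66 D10_XAV939 cells with as much STMN2, PCSK1 was at 7.91 CPM (4.21 to 13.5) against 0.575 CPM in the cells under 100 CPM of STMN2.

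With XAV939 no tested member was called on either day. At D5 0 of 3 tested members were called, beside 0.611% of tested genes called higher and 0.575% called lower with XAV939. The largest difference was in CPE, at 21.7 CPM with XAV939 and 40.8 CPM without (1.88-fold lower, log2 ratio -0.91, -0.99 to -0.83). PAM was at 19.1 and 16.2 CPM (0.24, 0.14 to 0.35) and SCG5 at 79.4 and 83.8 CPM (-0.08). At a 1.5-fold limit CPE was called, beside 4.84% of tested genes.

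At D10 0 of 3 were called, beside 1.21% of tested genes called higher and 1.41% called lower. CPE was now higher with XAV939, at 47.1 and 37.8 CPM (0.32, 0.24 to 0.39), PAM was at 17.8 and 11.3 CPM (0.65, 0.52 to 0.78) and SCG5 at 51.6 and 87.1 CPM (-0.75, -0.82 to -0.69). At a 1.5-fold limit PAM and SCG5 were called, beside 7.36% of tested genes. Among members under 10 CPM, PCSK2 was at 1.05 and 0.394 CPM (1.42, 0.77 to 2.09) and CHGB at 5.79 and 2.37 CPM (1.29, 1.02 to 1.55). Cells with at least 1000 CPM of STMN2 numbered 66 of 2168 with XAV939 and 17 of 2416 without. Over the whole libraries SCG3 was at 8.85 and 5.79 CPM and PCSK1N at 5.99 and 3.75 CPM. In cells under 100 CPM of STMN2, SCG3 was at 3.13 and 4.20 CPM, PCSK1N at 3.47 and 2.65 CPM and CHGB at 3.49 and 2.08 CPM. PCSK2 had 4 and 7 UMIs there (0.0719 and 0.0897 CPM), too few to compare. How far the number of cells with much STMN2 set the library levels was not tested. In the 66 cells SCG3 was at 203 CPM, PCSK1N at 93.1 CPM, CHGB at 84.6 CPM and CPE at 188 CPM.

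The wider pathway was read from 6 lists of 60 genes that exclude the 10 members. In GNRH1-high against other kept cells 0 genes were called higher and 3 lower of 33 that reached 10 CPM at D24 (2.37% and 4.98% of all tested genes). At D26 1 was called higher and 2 lower of 39 (1.99% and 2.91% of all tested genes). VGF, a granin-like neuropeptide precursor, was the one called higher, at 61.4 against 30.7 CPM at D26 (log2 ratio 1.00, 0.87 to 1.13), with 0.85 at D24. SYT4, a synaptotagmin found on granules, was at 9.25 against 22.6 CPM (-1.29; -2.84 at D24), and RAB3B, a small GTPase of vesicle release, at 15.7 against 36.1 CPM (-1.20; -1.38 at D24). The third gene called lower at D24 was CADPS2, a priming factor of dense-core vesicles named after its values were seen, at 1.63 against 10.4 CPM (-2.67, -4.30 to -1.44), and it was under 10 CPM in both groups at D26.

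The processing list had a median log2 ratio of -0.09 over 6 genes at D26. The cathepsins CTSB (0.28) and CTSL (0.14) and the protease MBTPS1 (-0.08) had its highest ratios and carboxypeptidase D (CPD, -0.35), PREPL (-0.26) and the convertase PCSK7 (-0.10) its lowest. For amidation, which needs copper and electrons inside the granule, the copper transporters SLC31A1 (-0.12) and ATP7A (-0.61) and the cytochrome CYB561 (-0.28) were all lower by less than 2-fold, with a median of -0.28. In the list of other cargo and membrane proteins (median 0.15 over 5) the granule phosphatase-like protein PTPRN was at 0.61, NPDC1 at 0.15 and PTPRN2 at -0.01.

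Granule biogenesis genes had a median of -0.00 over 6, with ARFIP2 (0.16), RAB2A (0.11) and PICK1 (0.03) highest and BAIAP3 (-0.37), VPS41 (-0.36) and CCDC186 (-0.04) lowest. Of 14 release genes (median -0.02), the calcium sensor SYT1 (0.54), the membrane fusion protein STX1A (0.46) and the priming factor CADPS (0.41) had the highest ratios, and after RAB3B came SYT7 (-0.87) and SYT5 (-0.50). The 5 regulators (median -0.14) ran from the corepressor RCOR2 (0.25) and RCOR1 (0.02) to CREM (-0.37), CREB1 (-0.29) and INSM1 (-0.14).

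At D24 against D22, 11 of 36 list genes were called higher and 5 lower, beside 10.2% and 12.9% of all tested genes. The release list held 9 of those called higher, among them RAB3A (7.50 CPM at D22, log2 ratio 3.32) and SNAP25 (50.2 against 6.84 CPM, 2.87), with CPLX2 called lower (-1.92). The regulators held 4 of those called lower, REST (2.20 against 31.8 CPM, -3.86), RCOR2 (-1.92), RCOR1 (-1.06) and, just past the limit, INSM1. These names were chosen after their values were seen. REST, a repressor of neuronal genes, was at 93.5 to 119.9 CPM in the early libraries and 1.15 CPM at D26. From D24 to D26 2 list genes of 39 were called higher and 1 lower (7.37% and 2.03% of all tested genes). At D5 against D0 3 of 26 were called higher and 6 lower (8.22% and 17.0%), and at D10 against D5 0 of 21 (5.15% and 1.35%). With XAV939 0 of 22 were called at D5 (0.611% and 0.575%) and 1 of 22, higher, at D10 (1.21% and 1.41%).

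The genes whose level over the 8 libraries ran most like each member, among 4889 genes with at least 50 CPM in a library, were found by Pearson's r of log2(CPM + 1). For the enzymes these included THTPA (0.997) and GPC2 (0.996) for PCSK1, CCSER1 and TMEM196 (both 0.998) for PCSK2, ZMIZ1 (0.987) for CPE, and KIF5C (0.996) and NDRG4 (0.991) for PAM. GNG3 (0.997) was among those that ran most like PCSK1N, and C1QTNF4 (0.986) and EMC7 (0.974) ran most like SCG5. For the granins they were RTN4 (0.997) and DNAJC4 (0.995) for SCG2, OLFM1 (0.992) and ISCA1 (0.991) for SCG3, COL6A1 (0.995) and PAK1 (0.987) for CHGA, and NT5C3B (0.999) and JAKMIP2 (0.996) for CHGB. The points share the split between early and late libraries, so these values are descriptions of 8 libraries only.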

How the data were processed

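Single-cell tables of UMI counts per gene and cell, raw and not normalised, were deposited by the authors, who used Cell Ranger 3.1 and GRCh38 according to the submitters' processing notes. The early tables list 36601 genes and 12 tag features, left out of the totals, and the late ones 33538 genes. Of the tag counts of an early library, 95.1% to 95.6% came from a single tag. Cells were kept by the limits in the study's methods on UMIs, genes, complexity and mitochondrial share. For D0 the printed complexity limit (above 0.85) keeps 1 cell, so it was read as below 0.85, which keeps 1008. For D5 and D10 the study analysed as many cells as there are deposited barcodes (2480 to 2919), of which the limits kept 2168 to 2815 here; all barcodes were an alternative. Total UMIs of kept cells ran from 58073098 to 130440502 per library. Counts were summed over cells and scaled to CPM, with exact Poisson, binomial or Clopper-Pearson intervals (95%). No ratio was formed where both groups had at most 3 UMIs. Shares of cells were compared after random thinning to 1500 or 5000 UMIs. Cell groups were set in the order GNRH1-high, DLX-positive, dividing, IRX-positive (at least 300 CPM), glutamatergic-marker-positive (TBR1, PPP1R17 and SLC17A6, at least 300 CPM). Doublet-like cells had a Scrublet score of 0.25 or more (scanpy 1.11.5) and were kept unless stated. Python 3.11.15, numpy 2.4.6, scipy 1.17.1, pandas 2.3.3 and matplotlib 3.10.9 were used. Only the ratio with its interval and the Poisson interval were checked on simulated data. These were pooled Poisson counts, so cell limits, cell groups, thinning and doublet scores were not checked. The members and lists were chosen with earlier results of these data known. Besides the members and GNRH1, the genes named were the 3 with the largest ratio in each direction in each list at D26 and the 2 most alike per member, some of which are not reported here. Planned protein features were not computed, because no protein table was used here. The strand used in counting is not given in the sources used here. A separate library of tag reads was not analysed here.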

Additional observations from a re-analysis of the deposited data

Results flagged for a closer look

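CHGA, the chromogranin of dense-core granules, had ratios of opposite sign by CPM on the 2 days. Its log2 ratio in GNRH1-high over other kept cells was -0.36 at D24 (32.0 against 41.1 CPM) and 0.49 at D26 (66.0 against 47.1 CPM), a difference of 0.85, with both intervals away from 0. Against DLX-positive GNRH1-low cells the ratio was -0.05 at D24 and 0.47 at D26. The share of cells with CHGA after thinning to 1500 UMIs was 6.38% (4.04 to 9.50) against 5.95% at D24 and 7.21% (5.68 to 8.99) against 7.17% at D26. These shares settle no direction on either day. There was 1 library per day, so the difference between days was not tested.

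CPE, the carboxypeptidase of the granule, was lower with XAV939 at D5 (21.7 against 40.8 CPM, -0.91) and higher at D10 (47.1 against 37.8 CPM, 0.32), a difference of 1.23 on the log2 scale. In D10 cells under 100 CPM of STMN2 it was at 43.0 CPM with XAV939 and 36.0 CPM without. The difference between days was not tested.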

How the results depend on the processing

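No paired analysis was possible because each condition had 1 library and no result came from a test. The choice of comparison cells mattered most. Against DLX-positive GNRH1-low cells the called members went from 4 to 0 at D24 and from 3 to 0 at D26 (3.84% and 0.652% of all tested genes were called there in either direction), and the log2 ratios turned to 0.70 for PCSK1, 0.61 for PCSK2, 0.26 for PAM and 0.029 for SCG2 at D24 and 0.54 for PCSK1 at D26. With a 1.5-fold limit in place of 2-fold, 5 members were called in GNRH1-high cells at D26 (9.83% of all tested genes), 1 with XAV939 at D5 (4.84%), 2 with XAV939 at D10 (7.36%) and 5 at D5 against D0 (46.8%). Without mitochondrial and ribosomal protein genes in the totals, 5 were called at D5 against D0 (2608 of 10020 tested genes). With the same totals 1 was called at D26 against D24 (8.02% of tested genes), where SCG5 was at 0.98. Leaving out GNRH1-high cells with glutamatergic markers, a choice that itself enlarges the differences, gave 5 at D26 (6.44% of tested genes). Of 120 log2 ratios per day recomputed for GNRH1-high cells under the alternatives, 104 at D24 and 83 at D26 stayed within the counting interval of the reported value, 12 and 36 moved further, and 4 and 1 of the called ones changed sign. The cause of these changes was not tested beyond the cells left out. Depth limits the shares of cells, and 1 culture per condition limits every comparison between days or treatments.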

Other observations

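The 54 dividing cells at D24, described after their values were seen, held the granule gene SCG3 at 539 CPM (483 to 600.3), above the 34.3 CPM of the 2073 dividing cells at D22. PCSK1N and CPE were each at 97.1 CPM in them, PAM at 66.4 CPM, CHGA at 8.10 CPM and SCG5 at 6.48 CPM, and their median depth was 11196 UMIs. At D22, IRX-positive cells (236) had PCSK1N at 125 CPM, SCG3 at 90.2 CPM, CPE at 43.6 CPM, CHGB at 20.1 CPM and PCSK1 at 3.74 CPM, the lowest PCSK1 of the groups of more than 6 cells on that day. The 6 GNRH1-high cells at D22 had PCSK1N at 937 CPM, SCG3 at 409 CPM and SCG5 at 289.6 CPM.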
